A study of Mus musculus with 3 samples.

Results

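The genes described here are those of autophagy, 38 of the 18193 genes named on the array. They were chosen by symbol alone: the ATG genes, the ULK kinases, the LC3 and GABARAP proteins, WIPI1 and WIPI2, Beclin 1 and its lipid kinase partners, the cargo receptors p62 (Sqstm1), Nbr1 and Bnip3, and the transcription factor Tfeb. The symbols were set with earlier results of these data known. The genes were measured with 84 probe sets that name 1 gene each. Each gene is represented by its brightest probe set over the 3 arrays. The study hybridised total RNA of memory phenotype CD4 T cells, helper T cells that carry the surface marks of earlier activation, to 3 Affymetrix mouse arrays. According to the labels, the cells had been sorted from the spleens of BALB/c mice kept for 10 weeks on a normal diet (ND, 1 array) or on a high fat diet with 60 kcal% fat (HFD, 2 arrays, called HFD 1 and HFD 2). The labels give no age or sex of the animals, and do not say whether an array held 1 mouse or a pool. P-values cover no more than the spread between the 2 HFD arrays, which may be technical.

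Macroautophagy encloses cytoplasm in a double membrane, the autophagosome, and delivers it to the lysosome. The ULK kinase complex starts the process, the class III PI3-kinase complex marks the membrane with a phosphorylated lipid, ATG9 and ATG2 proteins supply lipid, and 2 ubiquitin-like conjugation systems attach the ATG8 proteins (LC3 and GABARAP) to the growing membrane, where receptors dock cargo. In T cells autophagy clears mitochondria, supports the survival of memory cells and is restrained by mTORC1, which also holds TFEB, an activator of autophagy and lysosome genes, out of the nucleus. Many of its steps are controlled on proteins rather than transcripts, so RNA levels do not measure autophagic flux.

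The arrays were scaled to a common mean, and across all genes ND differed more from either HFD array than those did from each other, with a median absolute log2 difference of 0.39 and 0.45 to HFD 1 and HFD 2 against 0.13 between the HFD arrays. T cell markers other than Cd4 were bright on all arrays. The summed intensity over 10 genes was 100027 on ND and 81202 to 83321 on the HFD arrays. Of the 10, 7 were called lower in HFD, 0 higher and 3 were not called. Those called lower included Cd4, at 911 on ND, 609 on HFD 1 and 377 on HFD 2 (1.87-fold). They also included Cd44, at 9761, 5623 and 5700 (1.72-fold). Of 14 macrophage and monocyte markers 7 passed the filter on dim genes, and 6 of these were called lower and 0 higher, with a summed intensity over all 14 of 2811 on ND and 1150 to 1298 on the HFD arrays. Of 8 dendritic cell markers 7 passed, Siglech, Cd209a, Flt3 and Itgax called lower and 0 higher (summed 2159 on ND, 895 to 1065 on HFD). Flt3, with an HFD mean of 66.7, passed only through ND. The macrophage markers C1qb and Vcam1, with HFD means of 50.2 and 69.4, also passed only through ND. The calls of these genes depend on the difference that let them in. Summed levels went from 12097 to between 11006 and 11690 for 11 B cell markers, from 1536 to between 1981 and 2243 for 7 NK and CD8 cell markers (Eomes, Cd8a and Gzma called higher, 0 lower), and from 332 to between 177 and 232 for 8 red cell precursor markers (0 called). Of 6 B cell markers past the filter, Ms4a1 (56.8 on ND, 1612 on HFD 1, 1837 on HFD 2) and Fcer2a (31.6, 524 and 644) were called higher and Cd22, Ighm and Cd74 lower, while the defining Cd79a and Pax5 did not pass it. Ms4a1 and Fcer2a passed it only through their HFD values, so that their calls depend on the difference that let them in. No marker was listed at 0. The part of these cells in the differences below was not tested. In these bulk samples fewer cells of a type and less RNA per cell cannot be told apart. H2-Ea, a class II gene that BALB/c mice carry intact and C57BL/6 mice do not transcribe, read 11.5 on ND, 536 on HFD 1 and 602 on HFD 2. It was chosen after its values were seen. The labels give BALB/c for all 3 arrays, and whether the ND sample was of the same strain as the HFD samples was not tested. With a single ND array, diet cannot be told apart from anything else that array did not share with the others.

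The comparison asked which autophagy transcripts differed between the diets, and most of the measured ones read lower in HFD. Of 36 autophagy genes tested, 15 were called lower (41.7%) and 1 higher (2.78%), against 29.2% lower and 20.5% higher, 49.6% together, among all 10341 genes tested. Both HFD arrays lay below ND for 28 of the 36 genes (77.8%), a pattern shown by 54.7% of all genes, and both lay above it for 5, a pattern shown by 35.8%. The median difference was -0.38 on the log2 scale, against -0.15 for all genes. The fall was modest in size: 1 autophagy gene, Tfeb, was at least 2-fold lower on both HFD arrays, and 1, Atg9b, at least 2-fold higher, as 2.60% and 6.00% of all genes were. Both are dim genes that passed the filter on dim genes only through the group in which they read high. Without them 14 of 34 were called lower and 0 higher. A call is an adjusted p under 0.05 in limma's moderated test with Benjamini-Hochberg adjustment over all genes, and differences are on the log2(intensity + 17.65) scale, which understates changes of dim genes. Because the scaling leaves the median of all genes 0.15 lower in HFD, the calls were also made with each array centred on its median. Then 9 of the 36 autophagy genes were called lower and 3 higher, against 20.3% lower and 26.7% higher of all genes, that is 2097 lower and 2757 higher in place of 3015 and 2117.

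**Figure D1:**
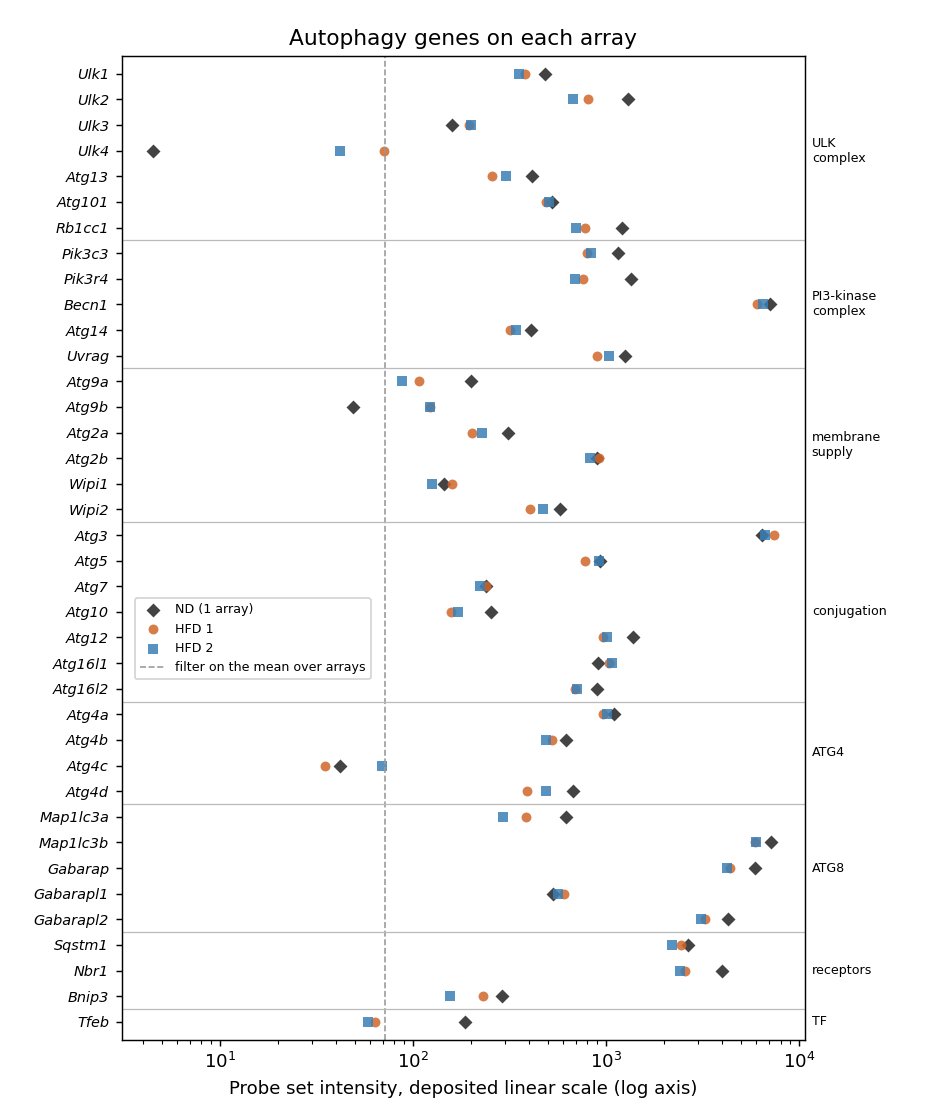
Intensity of the brightest probe set of each of 38 autophagy genes (log axis) on the ND array (black diamonds), HFD 1 (orange circles) and HFD 2 (blue squares), grouped by role. The HFD points lie close together and to the left of ND for most genes; Atg9b, Ulk3, Ulk4, Atg3, Atg16l1 and Gabarapl1 are the 6 genes with both to the right. The dashed line is the filter at a mean intensity of 71.4, which Atg4c and Ulk4 did not pass.

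Among the initiation genes, Ulk2 and Rb1cc1 fell in HFD. Ulk2, a kinase that can stand in for ULK1, read 1297 on ND, 804 on HFD 1 and 676 on HFD 2 (HFD mean 740 ± 90.4 SD, n = 2). It fell by 0.80 ± 0.15 (SE) on the log2 scale, 1.74-fold (adjusted p = 8.3e-04). All 4 of its probe sets read lower in HFD, with log2 differences from -0.80 to -0.58. Rb1cc1 encodes FIP200, the scaffold on which the ULK complex assembles. It read 1210 on ND, 779 on HFD 1 and 700 on HFD 2 and fell 1.62-fold (log2 -0.70 ± 0.14 SE, adjusted p = 0.0015), with its other measured probe set at -0.60. Both HFD arrays were clearly below ND for each of these genes, by more than the gap between the HFD arrays.

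Atg13, the regulatory subunit that mTORC1 phosphorylates, read 415 on ND, 257 on HFD 1 and 304 on HFD 2. It was called lower (log2 -0.54 ± 0.19 SE, adjusted p = 0.0337), and its other probe sets read -0.55 and -0.99. The call ended when arrays were quantile normalized (adjusted p = 0.126) or centred (0.112), with no filter (0.143) and without a variance trend (0.0570). Ulk1, the main initiating kinase, read 485 on ND and 382 and 352 on the HFD arrays and was not called (log2 -0.39 ± 0.17 SE, adjusted p = 0.0781). Atg101, which stabilises ATG13, read 523, 488 and 506 (log2 -0.07 ± 0.16 SE, adjusted p = 0.737), and its sign turned when arrays were quantile normalized or centred. Ulk3, a related kinase, read 160 on ND and 194 and 200 on HFD (log2 0.27 ± 0.24 SE, adjusted p = 0.358). Ulk4, a pseudokinase relative, was too dim to be tested, at 4.49 on ND, 70.6 on HFD 1 and 41.8 on HFD 2.

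Transcripts of the class III PI3-kinase complex were lower for its kinase, its regulatory subunit and Uvrag, and no called difference was found for its Beclin 1 and ATG14 subunits. Pik3r4 encodes VPS15, the subunit that anchors and activates the kinase. It read 1353 on ND, 758 on HFD 1 and 690 on HFD 2 (HFD mean 724 ± 48.1 SD, n = 2) and fell 1.85-fold (log2 -0.89 ± 0.14 SE, adjusted p = 2.6e-04). Pik3c3, the lipid kinase VPS34 itself, read 1151, 796 and 838 and fell 1.40-fold (log2 -0.49 ± 0.14 SE, adjusted p = 0.0114). The Pik3c3 call ended with arrays centred (adjusted p = 0.0630). Uvrag, which directs the complex to endosomes and later stages, read 1258, 901 and 1029 (log2 -0.38 ± 0.14 SE, adjusted p = 0.0407), and this call ended under 5 of the 9 alternative settings (adjusted p from 0.0514 to 0.214). Becn1, the scaffold shared by all forms of the complex, read 7027 on ND and 6026 and 6491 on HFD (log2 -0.17 ± 0.10 SE, adjusted p = 0.166). Becn1 was called lower under quantile normalization (log2 -0.30, adjusted p = 0.0085). Atg14, which targets the complex to sites of autophagosome formation, read 408, 318 and 343 (log2 -0.29 ± 0.18 SE, adjusted p = 0.195).

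**Figure D2:**
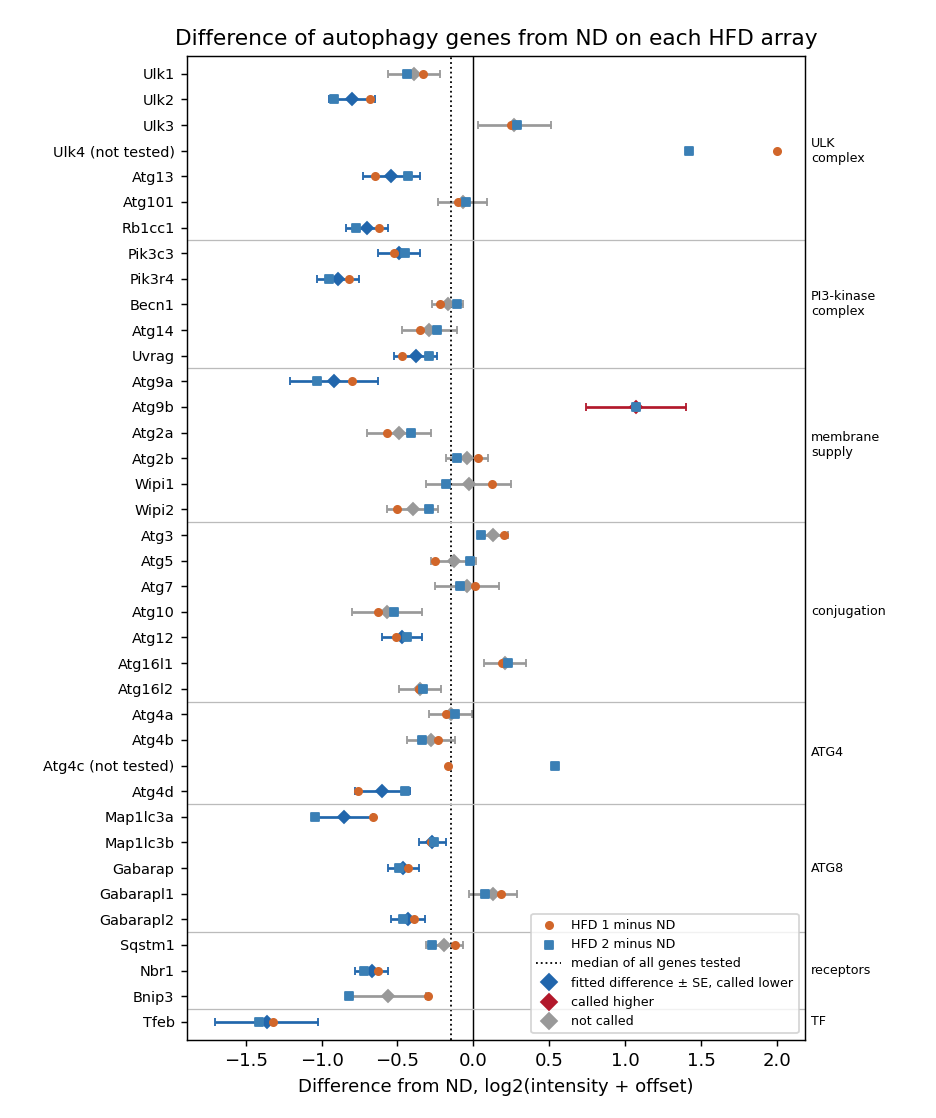
Difference from ND of HFD 1 (orange circles) and HFD 2 (blue squares) for 38 autophagy genes, with the fitted mean difference ± SE (diamonds; blue called lower, red called higher, grey not called; horizontal axis log2(intensity + 17.65)). The 15 genes called lower lie between -1.36 (Tfeb) and -0.27 (Map1lc3b), and the dotted line marks the median of all genes tested, -0.15.

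Transcripts of the membrane supply proteins differed within one family. ATG9 proteins are lipid scramblases on vesicles that seed the autophagosome, ATG9A being the ubiquitous form and ATG9B a form of restricted expression. Atg9a read 199 on ND, 107 on HFD 1 and 88.2 on HFD 2 and was called lower, 1.89-fold (log2 -0.92 ± 0.29 SE, adjusted p = 0.0194). Atg9b read 48.8 on ND and 122 on each HFD array and was called higher, 2.10-fold (log2 1.07 ± 0.33 SE, adjusted p = 0.0172), the 1 autophagy gene called in that direction. Both genes were dim and rest on 1 probe set past the filter. Both calls ended when no filter was used (adjusted p = 0.117 for Atg9a and 0.0953 for Atg9b), and that of Atg9a under quantile normalization (adjusted p = 0.0564). Atg9b passed the filter only through its HFD values, so that its call and fold depend on the difference that let it in. Its other probe set read 12.2 on ND, 40.3 on HFD 1 and 7.51 on HFD 2, so it gave no repeat of the difference.

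ATG2 proteins move lipid from the endoplasmic reticulum into the growing membrane, and WIPI proteins bind the lipid made by VPS34. Atg2a read 309, 202 and 228 (log2 -0.49 ± 0.21 SE, adjusted p = 0.0706) and Atg2b read 894, 914 and 827 (log2 -0.04 ± 0.14 SE, adjusted p = 0.844), with ND between the HFD arrays for Atg2b. Wipi1 read 145, 159 and 126, again with ND in between (log2 -0.03 ± 0.28 SE, adjusted p = 0.941). Wipi2, which recruits ATG16L1, gave opposite readings by probe set. Its brightest read 579 on ND, 404 on HFD 1 and 470 on HFD 2 (log2 -0.40 ± 0.17 SE, adjusted p = 0.0686). Another read 228, 491 and 426 (log2 0.95), and its dimmest measured one read 80.8, 120 and 97.6 (log2 0.35). Averaging them turned the sign (log2 0.30, adjusted p = 0.162), so no direction can be given for Wipi2.

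Most of the conjugation enzymes were not called. Atg12, the ubiquitin-like protein joined to ATG5, read 1380 on ND, 966 on HFD 1 and 1013 on HFD 2 and was called lower, 1.39-fold (log2 -0.47 ± 0.13 SE, adjusted p = 0.0109). The Atg12 call ended with arrays centred (adjusted p = 0.0664), with probe sets averaged (0.100) and without a variance trend (0.0502). Atg7, the activating enzyme of both systems, read 238, 239 and 223 (log2 -0.04 ± 0.21 SE, adjusted p = 0.887). Its 2 other measured probe sets read -0.53 and -0.26, and their average with the brightest was -0.28 and not called. Atg3, which passes ATG8 proteins to the membrane lipid, read 6443, 7393 and 6684 (log2 0.13 ± 0.10 SE, adjusted p = 0.307), a sign that turned under quantile normalization and a difference called higher with arrays centred (log2 0.28, adjusted p = 0.0497). Atg5 read 930 on ND and 781 and 919 on HFD (log2 -0.13 ± 0.15 SE, adjusted p = 0.489), and its other probe sets read 0.12 and 0.11. The calls missed here do not show that the levels were equal.

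Atg10, which attaches ATG12 to ATG5, read 253 on ND and 157 and 171 on HFD (log2 -0.57 ± 0.23 SE, adjusted p = 0.0572) and was called lower without a variance trend (adjusted p = 0.0364) and with probe sets averaged (0.0421). Atg10 has 1 probe set, so averaging left its difference at -0.57 and only its adjusted p moved. The paralogs that build the ligase complex read in opposite directions. Atg16l1, the subunit that places the ligase on the membrane, read 910, 1037 and 1073 (log2 0.21 ± 0.14 SE, adjusted p = 0.218) and was called higher with arrays centred (log2 0.36, adjusted p = 0.0363). Atg16l2, a relative not needed for canonical autophagy, read 892, 690 and 705 (log2 -0.35 ± 0.14 SE, adjusted p = 0.0615). Its other probe set read -0.70, and it was called lower with probe sets averaged (log2 -0.52, adjusted p = 0.0248) and with the filter at the 75th percentile (0.0380). The difference between the paralogs was not tested.

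The letters CACGTG are the core of the CLEAR element, the motif to which TFEB and related factors bind. They were searched in the promoters together with the other motifs named below. RefSeq promoters (GRCm38.p6, 250 bases before to 50 after each start, both strands, the motif being its own reverse complement) were at hand for 32 of the 38 genes, 37 promoters in all. At least 1 CACGTG was found in 5 of the 32 genes (15.6%), namely Atg3, Atg5, Atg7, Atg14 and Bnip3, against 12.1% of 8441 tested genes with a promoter. By call, it was found in 0 of 12 called and 5 of 18 not called autophagy genes, against 12.5% of all called and 11.8% of all not called genes. With so few genes nothing is read from that split. The longer form TCACGTGA, which contains the former, was found in Atg3 alone of the 32 (3.12%, against 2.37% of tested genes). TGATGCAA, an ATF4-type motif, and GTAAACA, a FOXO-type motif, were found in 0 of the 32 on either strand, against 0.675% and 3.22% of tested genes. These are matches of letters and no evidence of binding. The stretches that hold the motif are shown to give its place, CACGTG in capitals, 5′ to 3′ on the strand of the gene.
Atg3, chr16:45158708-45158777, plus strand, first motif bases at -94 and -71 from the start: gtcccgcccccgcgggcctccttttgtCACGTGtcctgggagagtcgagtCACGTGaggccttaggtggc
Atg5, chr10:44268285-44268338, plus strand, first motif base at -14: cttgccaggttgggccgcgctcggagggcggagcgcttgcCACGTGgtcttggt
Atg7, chr6:114670924-114670983, plus strand, first motif base at -132: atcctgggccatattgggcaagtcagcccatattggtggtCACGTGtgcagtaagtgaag
Atg14, chr14:47568430-47568475, minus strand, first motif base at -1: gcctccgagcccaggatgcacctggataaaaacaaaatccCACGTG
Bnip3, chr7:138909595-138909654, minus strand, first motif base at -108: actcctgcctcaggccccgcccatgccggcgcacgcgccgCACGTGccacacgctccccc

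ATG4 proteases trim ATG8 proteins before conjugation and release them afterwards. Atg4d, a form linked to mitochondria, read 672 on ND, 390 on HFD 1 and 489 on HFD 2 and was called lower, 1.52-fold (log2 -0.60 ± 0.18 SE, adjusted p = 0.0126). Its call ended with no filter (adjusted p = 0.0875) and without a variance trend (0.0614). Atg4b, the most active of the family, read 621, 527 and 488 (log2 -0.28 ± 0.16 SE, adjusted p = 0.153), with a second probe set at 0.04. Atg4a read 1098, 966 and 1008 (log2 -0.15 ± 0.14 SE, adjusted p = 0.379). Atg4c was too dim to be tested, at 42.0 on ND, 35.2 on HFD 1 and 68.9 on HFD 2.

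The ATG8 proteins, the membrane-bound mark of the autophagosome, were called lower for 4 of 5 genes, against 29.2% of all genes. With arrays centred, only Gabarap and Map1lc3a of these were still called lower, against 20.3% of all genes. Gabarap read 5895 on ND, 4370 on HFD 1 and 4206 on HFD 2 (HFD mean 4288 ± 116 SD, n = 2) and fell 1.37-fold (log2 -0.46 ± 0.10 SE, adjusted p = 0.0022). Gabarapl2, also called GATE-16, read 4279, 3262 and 3103 and fell 1.34-fold (log2 -0.43 ± 0.11 SE, adjusted p = 0.0055), with its other probe set at -0.85. For both, the HFD arrays lay close together and well below ND. Without a variance trend the adjusted p-values were 0.0529 for Gabarap and 0.0636 for Gabarapl2, and with arrays centred that of Gabarapl2 was 0.0733.

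Map1lc3b, the LC3 form most used as a marker of autophagosomes, read 7148 on ND, 5872 on HFD 1 and 5963 on HFD 2 on its brightest probe set. The fall was 1.21-fold (log2 -0.27 ± 0.09 SE, adjusted p = 0.0278). Its 3 other probe sets read larger decreases of -0.76 to -0.83, the brightest of them going from 5455 to 3164 and 3016. The call of the brightest probe set ended with arrays centred (log2 -0.12, adjusted p = 0.456), with no filter (0.0814) and without a variance trend (0.154), while the mean of the probe sets was called. Map1lc3a read 622, 386 and 293 (log2 -0.85 ± 0.19 SE, adjusted p = 0.0027). That value comes from a probe set with the suffix _x_at, which marks probes that can match other transcripts. The other Map1lc3a probe set read 106, 122 and 87.5 (log2 -0.03), and averaging both ended the call (adjusted p = 0.131). Gabarapl1, the fifth gene, read 531 on ND and 605 and 563 on HFD (log2 0.13 ± 0.16 SE, adjusted p = 0.511).

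**Figure D3:**
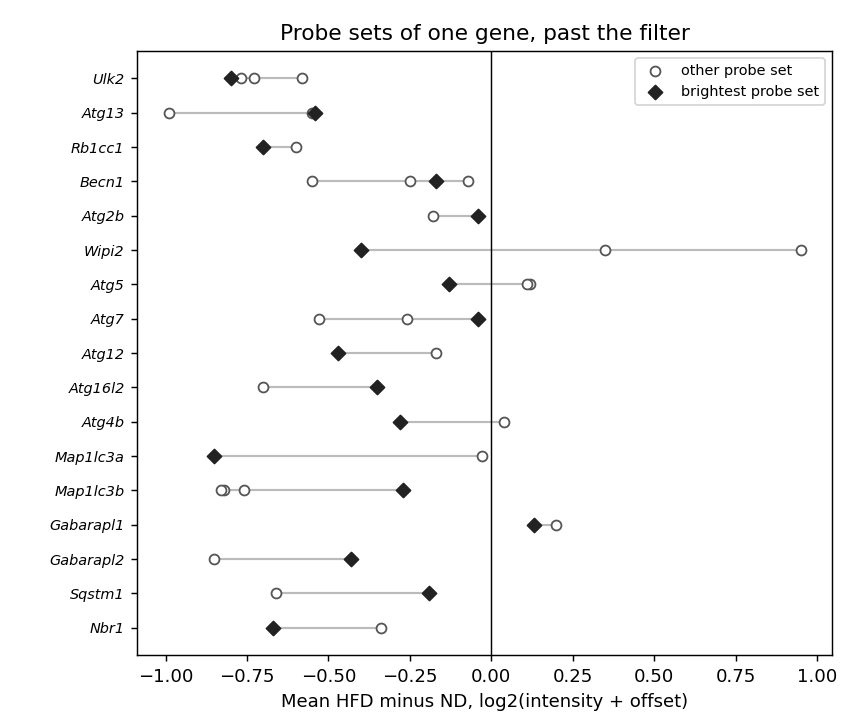
Mean HFD minus ND difference on the log2(intensity + 17.65) scale for every probe set past the filter, for the 17 autophagy genes with more than 1; filled diamonds are the brightest probe set and open circles the others. Probe sets of a gene lie on one side of 0 for 14 genes and on both for Atg4b, Atg5 and Wipi2; for Map1lc3b the brightest reads the smallest decrease, -0.27 against -0.76 to -0.83.

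Of the cargo receptors, Nbr1, which binds ubiquitin and ATG8 proteins, read 3990 on ND, 2573 on HFD 1 and 2419 on HFD 2 (HFD mean 2496 ± 109 SD, n = 2). It fell 1.60-fold (log2 -0.67 ± 0.11 SE, adjusted p = 3.4e-04), and its other probe set read -0.34. Sqstm1, the receptor p62, which is itself degraded by autophagy, read 2645, 2431 and 2192 (log2 -0.19 ± 0.12 SE, adjusted p = 0.197). Its second probe set read 186, 122 and 102 (log2 -0.66), and the mean of both was called lower (log2 -0.43, adjusted p = 0.0414). Bnip3, a mitophagy receptor induced by low oxygen, read 289 on ND, 231 on HFD 1 and 156 on HFD 2. The gap between its HFD arrays, 0.52 on the log2 scale, was the widest of the 36 genes tested, and it was not called (log2 -0.56 ± 0.25 SE, adjusted p = 0.0807).

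Tfeb read 185 on ND, 63.3 on HFD 1 and 58.8 on HFD 2 (HFD mean 61.0 ± 3.21 SD, n = 2) and was called lower, 2.57-fold (log2 -1.36 ± 0.34 SE, adjusted p = 0.0047). Its 1 probe set was dim, with both HFD values under the filter of 71.4. It passed only through its ND value, so that its call and fold depend on the difference that let it in. The log2 difference was -0.95 with an offset equal to the median intensity and -1.58 with an offset of 1, and the adjusted p was 0.0516 with no filter.

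The calls differed in how far they depended on the settings. Ulk2, Rb1cc1, Pik3r4 and Nbr1 were called lower under all 9 alternative settings. Pik3r4 rests on 1 probe set, so averaging probe sets could not alter its difference. Quantile normalization left 13 of the 36 genes called lower (36.1%) and 1 higher, against 26.0% lower and 22.3% higher of all genes. Every called gene kept its sign under all settings that tested it, and each HFD array taken alone gave the same sign as the mean for all 16. These signs are no separate check. The filter and variance settings leave the difference of a gene unchanged, and centring moves all genes by the same amount. A call also requires a difference that is large beside the gap between the HFD arrays.

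**Figure D4:**
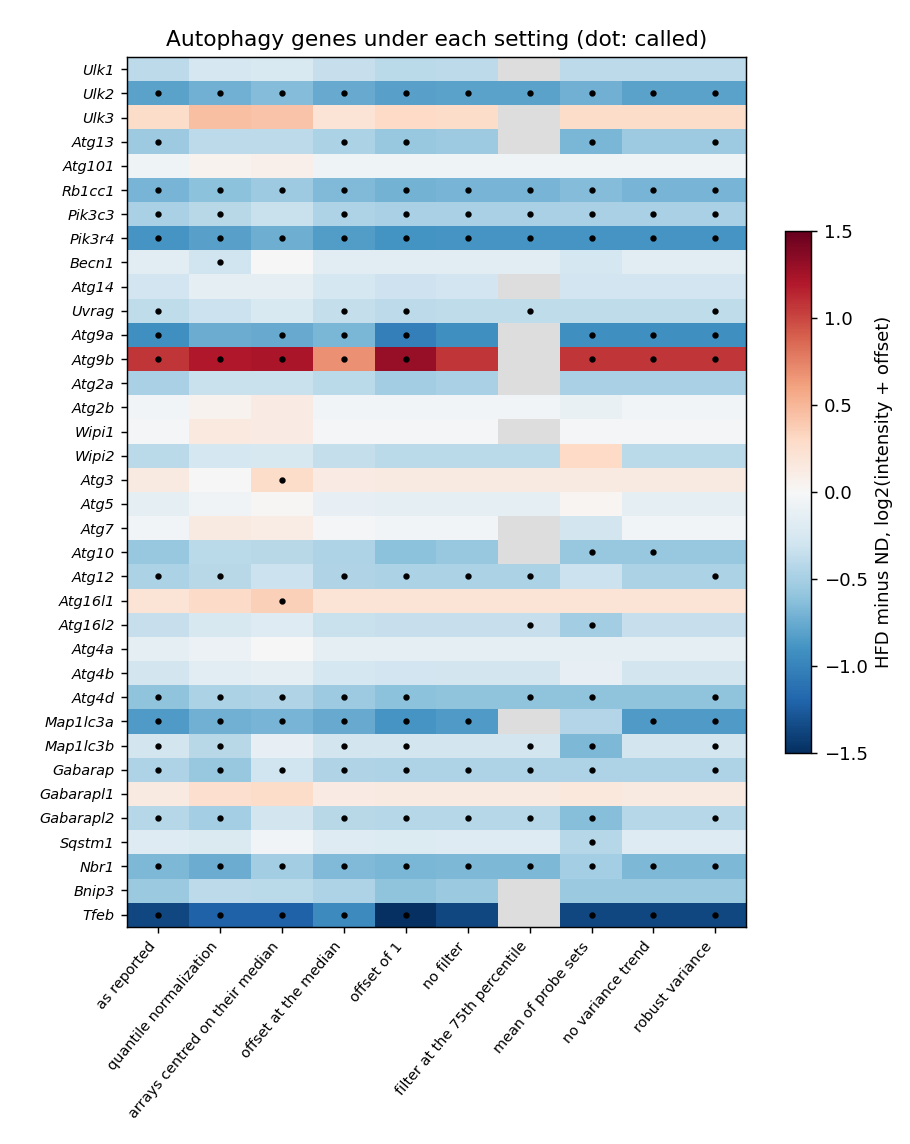
Mean HFD minus ND difference on the log2 scale (colour) of the 36 tested autophagy genes under the reported setting and 9 alternatives; a black dot marks a call and grey a gene not tested under that setting. Ulk2, Rb1cc1, Pik3r4 and Nbr1 have a dot in every column, while Atg13 and Uvrag lose theirs in several.

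Genes of the pathway that the symbols above do not cover were taken from 5 written lists of 98 genes, of which 88 were tested. The lists were written with earlier results of these data known, so their shares are no independent check. Of these, 36 were called lower (40.9%) and 4 higher, against 29.2% and 20.5% of all genes, with a median log2 difference of -0.29. With arrays centred, calls in either direction numbered 7 for other core genes, 5 for fusion, 5 for selective autophagy, 6 for upstream genes and 6 for transcription factors. As reported they numbered 8, 7, 10, 6 and 9. Of all genes, 20.3% were then called lower and 26.7% higher. The centred calls of the lists were not split by direction. Beside the results of the autophagy genes and of these lists stand the lower macrophage, dendritic and T cell markers given above, whose part was not tested.

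Among 17 other core genes tested, 7 were called lower and 1 higher (median log2 -0.34). Trp53inp2, which binds ATG8 proteins and promotes autophagosome formation, showed the largest decrease, from 341 on ND to 109 on HFD 1 and 43.0 on HFD 2 (log2 -2.04 ± 0.39 SE, adjusted p = 8.5e-04). Tecpr1, a lysosomal partner of the ATG12 and ATG5 conjugate, fell 1.80-fold (3288 to 2003 and 1647, adjusted p = 2.4e-04), and its other probe sets read -0.99 and -0.85. Snx30, a sorting nexin, fell 1.76-fold, with its other probe set at -0.63. Tbc1d14, which controls ATG9 traffic, fell 1.48-fold (log2 -0.56), and its other probe sets read smaller decreases of -0.25 and -0.14. The gene called higher was Tmem41b, a lipid scramblase of the endoplasmic reticulum, at 783, 988 and 1361 (log2 0.56 ± 0.17 SE, adjusted p = 0.0183). It falls outside the naming rule and was chosen after its values were seen.

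Among 15 genes of fusion with the lysosome, 7 were called lower and 0 higher (median log2 -0.36). Fyco1, the adaptor that moves autophagosomes along microtubules, fell 1.93-fold, from 1415 on ND to 753 on HFD 1 and 695 on HFD 2 (log2 -0.95 ± 0.14 SE, adjusted p = 1.4e-04). Its other probe set read a smaller decrease of -0.45. Of 4 SNARE genes of fusion tested, Stx17 and Vamp8 were called lower. Stx17 read 514, 335 and 269 (adjusted p = 0.0061, though its other probe sets read -0.47 and 0.14). Vamp8 read 4119, 2898 and 2825 (adjusted p = 0.0016). Snap29 (log2 -0.29, other probe sets 0.54 and 0.65) and Ykt6 (log2 -0.04, other probe set 0.68) were not called. Epg5, a tether that gives fusion its specificity, fell 1.38-fold (adjusted p = 0.0261).

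Among 20 genes of selective autophagy, 9 were called lower and 1 higher (median log2 -0.35). Pink1, the kinase that marks damaged mitochondria, fell 1.71-fold, from 2009 on ND to 1145 and 1190 on the HFD arrays (log2 -0.77 ± 0.13 SE, adjusted p = 3.3e-04). The receptors for the endoplasmic reticulum Ccpg1 and Retreg1 fell 1.86 and 1.46-fold. Phb2, a prohibitin of the inner mitochondrial membrane that also serves as a mitophagy receptor, rose 2.77-fold, from 3713 to 10180 and 10480 (log2 1.47 ± 0.09 SE, adjusted p = 8.6e-08), with its other probe sets at 0.64 to 1.51.

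Of 23 upstream kinases and nutrient sensors, 5 were called lower and 1 higher, both smaller shares than the 29.2% and 20.5% of all genes, and their median of -0.02 lay above that of all genes. Sesn3 and Sesn1, sestrins that restrain mTORC1, fell 1.70-fold (5763 to 3511 and 3268) and 1.64-fold (3196 to 2031 and 1855). Tsc1, a subunit of the complex that inhibits the mTORC1 activator RHEB, fell 1.42-fold (adjusted p = 0.0110). The other two called lower, named after their values were seen, were Ddit4, an mTORC1 inhibitor induced by stress (1.28-fold), and Bcl2, which binds Beclin 1 (1.40-fold). Bcl2l1, which encodes the Beclin 1 binding survival protein BCL-XL, rose 1.77-fold (708 to 1280 and 1250, adjusted p = 3.1e-04).

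Of 13 transcription factors with autophagy genes among their targets, 8 were called lower and 1 higher (median log2 -0.43). Foxo3 fell 2.31-fold, from 2522 on ND to 1192 and 980 (log2 -1.21 ± 0.14 SE, adjusted p = 2.5e-05), and Foxo1 fell 1.87-fold, from 3259 to 1806 and 1664 (adjusted p = 6.3e-05). Mitf, a relative of TFEB, was dim at 142, 59.6 and 75.7 (adjusted p = 0.0435). With an HFD mean of 67.6, Mitf passed the filter on dim genes only through its ND value. Its call, counted among the 8, therefore depends on the difference that let it in. E2f1, a cell cycle factor, rose 2.78-fold, from 100 to 343 and 282 (adjusted p = 1.9e-04).

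**Figure D5:**
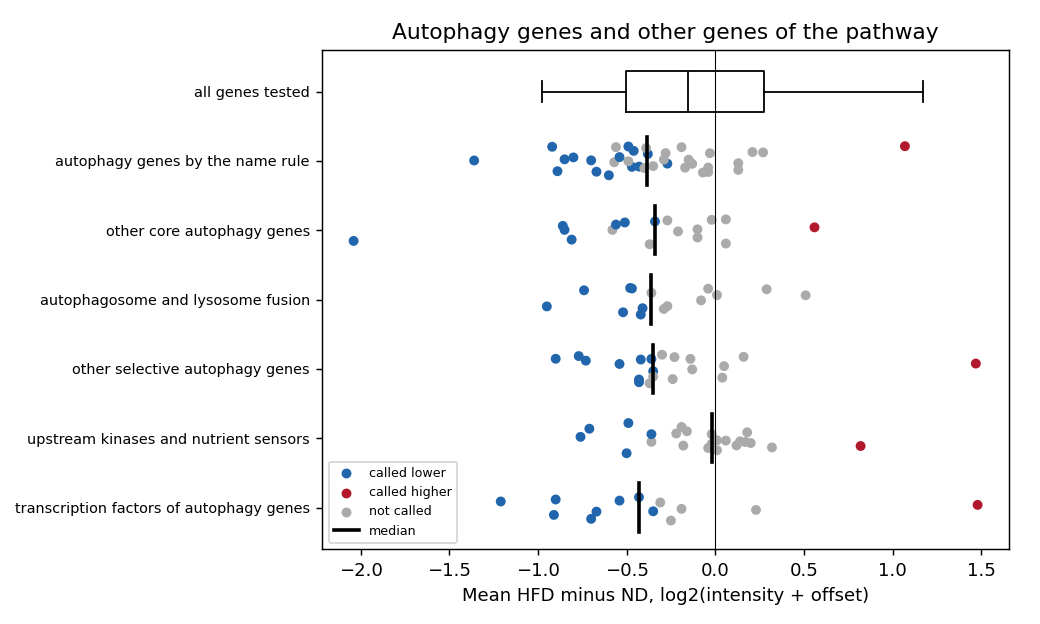
Mean HFD minus ND difference on the log2(intensity + 17.65) scale of the 36 tested autophagy genes and of 5 lists of other pathway genes (points; blue called lower, red called higher, grey not called; black bars are medians), below a box of all 10341 genes tested (median, quartiles, whiskers from the 5th to the 95th percentile). The medians lie between -0.43 and -0.34, except -0.02 for the upstream kinases and nutrient sensors, against -0.15 for all genes.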

How the data were processed

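The authors deposited 1 linear intensity per probe set and array. The submitters' processing notes name GCOS; its algorithm is not given in the sources used here. Each array's mean after trimming 2% at both ends is 500.0, a scaling that shifts all genes opposite to a change of bright ones. Probe sets were named from the platform annotation where it gives 1 gene symbol (34945 of 45037 besides controls). The 3 probe sets that name Bnip3l together with its pseudogene were left out, so Bnip3l is not among the autophagy genes described. Values were transformed as log2(intensity + 17.65), the 25th percentile of all values. Genes with a mean above 71.4, the median of all probe sets, were tested with limma 3.58.1 (eBayes with a trend) in R 4.3.3. With 1 ND array the residual rests on 1 degree of freedom from the HFD arrays, moderated by 11.69 prior degrees, and ND is assumed to vary like them. An exact test over 3 arrays cannot go below p = 0.333. The number of arrays limits the precision. No detection calls entered, so dim readings may be background. The model was checked on simulated data in which all 3 arrays varied alike. That check cannot tell whether ND in fact varies like the HFD arrays. Promoters on chromosome 18 were left out of the motif search.

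Members and lists were chosen with earlier results of these data known. All members are named, and of each other pathway list up to 4 called genes whose smaller difference to ND was largest. Marker lists covered T, B, macrophage and monocyte, dendritic, NK and CD8, and red cell precursor genes. Alternatives changed the normalization, offset, filter, merging of probe sets and variance model, or left out 1 HFD array. Tables and figures used pandas 2.3.3 and matplotlib 3.10.9.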

Additional observations from a re-analysis of the deposited data

How the results depend on the processing

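Of the 16 calls among autophagy genes, 12 were lost under at least 1 alternative, and 6 genes not called were called under another; the causes were not tested except where fewer genes or arrays entered. The offset at the median, an offset of 1 and the robust variance model changed 0 calls. With arrays centred 3 autophagy genes were called higher and 9 lower, and with no filter 0 and 9 (1922 of all genes lower). Without a variance trend 9 were called lower, and with the filter at the 75th percentile 0 were called higher. The median difference of the autophagy genes was -0.31 under quantile normalization, -0.23 with arrays centred, -0.35 with the offset at the median, -0.36 with no filter, -0.35 with the stricter filter, -0.41 with probe sets averaged, and -0.35 to -0.34 with a single HFD array. Signs turned, none of them of a called gene, under quantile normalization for Atg101 (0.05), Atg2b (0.05), Wipi1 (0.15), Atg7 (0.13) and Atg3 (-0.00), with arrays centred for Atg101 (0.08), Atg2b (0.12), Wipi1 (0.12), Atg5 (0.02), Atg7 (0.11) and Atg4a (0.00), and with probe sets averaged for Wipi2 (0.30) and Atg5 (0.03). With HFD 2 left out they also turned for Atg2b (0.03), Wipi1 (0.12) and Atg7 (0.01). Counts at least 2-fold lower over all genes were 125 with arrays centred, 137 with the offset at the median, 513 with no filter, 114 with the stricter filter, and 439 to 632 with a single HFD array, against 269. Autophagy genes at least 2-fold lower numbered 0 with the offset at the median or the stricter filter and 1 to 3 with a single array; at least 2-fold higher, 0 with that offset or the stricter filter, 2 with no filter, and 1 with either array. Calls in the other lists were, with no filter, 5 for core genes, 3 for fusion and 4 for transcription factors; for fusion, 4 without a variance trend; for selective autophagy, 5 with arrays centred, 6 with probe sets averaged and 4 without a variance trend. No paired analysis was possible because the ND group holds 1 array.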
